A study of Homo sapiens with 6 samples.

Results

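RGS proteins (regulators of G-protein signalling) shorten the signal of a G-protein-coupled receptor: they bind the alpha subunit of the heterotrimeric G protein and speed up its hydrolysis of GTP, so that the alpha subunit falls back to its inactive form. The family is divided by sequence into subfamilies. R4 proteins are small and consist of little more than the RGS domain, R12 proteins range from the short RGS10 to the multidomain RGS12, and RZ proteins carry a string of cysteines near the start of the protein. In pigment cells, G-protein-coupled receptors read melanocortin, endothelin and prostaglandin, and many R4 genes are switched on and off quickly by such signals. The transcripts described here are those of 10 RGS genes, RGS1, RGS2, RGS3, RGS4, RGS5 and RGS16 of the R4 subfamily, RGS10 and RGS12 of the R12 subfamily and RGS19 and RGS20 of the RZ subfamily. They were taken by symbol from the 24526 genes of the deposited table, and each of the 10 was found there.

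The cells were WM266.4, an established human melanoma cell line, in 2 groups of 3 cultures that the study calls biological replicates. One group received a single siRNA product against RIPK4, a kinase first described in keratinocytes (RIPK4.si), the other a negative control siRNA (neg.si), and RNA was isolated 48 h after transfection. Polyadenylated RNA was sequenced as paired reads and counted per gene without regard to strand. The comparison asks which transcripts differ in level when RIPK4 is silenced, with the limits that the silencing was transient, that 1 siRNA product and 1 cell line were used, and that in bulk RNA fewer cells with a transcript and less of it per cell cannot be told apart.

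Counts on genes came to between 28464057 and 31688095 per library. The RIPK4 transcript was at 85.8, 76.5 and 54.7 CPM, which scales counts to the normalized size of the library, in neg.si replicates 1, 2 and 3 and at 19.9, 16.7 and 21.5 CPM in the RIPK4.si libraries, so the targeted transcript followed the labels in every library. By the quasi-likelihood test of edgeR, with p-values adjusted by Benjamini and Hochberg's method over the 16297 genes past the filter on low counts, it fell by 1.90 on the log2 scale (adjusted p = 0.0102). The cells carried melanocytic transcripts, with MITF at 291 to 396 CPM and SOX10 at 290 to 428 CPM, and of the measured markers of keratinocytes, fibroblasts, leukocytes, endothelial cells and mural cells none was above 2.23 CPM in any library. Within neg.si the libraries differed in how transcript level followed GC content, with a Spearman correlation over 16239 genes of 0.555 in replicate 1 and -0.547 in replicate 3 between the GC content of a gene and its deviation from its mean over the libraries. In RIPK4.si the same values lay between -0.0788 and 0.165. The ratio of these 2 control libraries is given for each member beside its GC content, and the log2 fold changes of the members with the largest ratios also without each of these libraries.

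The sequence features that set members apart are shown first. Among the tested protein-coding genes with an annotated 3′ UTR, those whose longest annotated 3′ UTR holds the 7 bases ACAGCTT had lower log2 fold changes (median -0.091 in 2383 genes) than those without it (median 0 in 10595 genes). Genes with AGCAACC had slightly higher ones (median 0.041 in 1317 genes against -0.022 in 11661). Both sequences were chosen with earlier results of these data known, and the medians were not matched for UTR length. They are a description and no independent result of the silencing. Among the 10 RGS genes, ACAGCTT was present only in RGS1 and RGS2 and AGCAACC only in RGS5. The sites are printed here with 11 bases before and 12 bases after them, 5′ to 3′ on the strand of the gene, with the 7 bases in capitals. They lie at chr1:192579387-192579416 for RGS1, at chr1:192811774-192811803 for RGS2, both on the plus strand, and at chr1:163146212-163146241 on the minus strand for RGS5 (GRCh38).
RGS1: tccctgggtgaACAGCTTggccttttttgg
RGS2: ctggtatcagaACAGCTTccctcactgtgt
RGS5: agtaatcttttAGCAACCccagtattcctt

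The RGS1 and RGS2 sites start at bases 76 and 189 of UTRs of 702 and 679 bases. UTRs of such lengths hold ACAGCTT in 4.4% and 4.2% of cases, counted over all genes with a UTR within 20% of the same length. The RGS5 UTR is much longer, 5043 bases, and 18.8% of UTRs of about that length hold AGCAACC. As the values below show, these members were on the other side of the medians given for their sequence: RGS1 and RGS2 had higher levels in RIPK4.si and RGS5 a lower one.

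A different 7-base sequence, TATTTAT, the core of the AU-rich elements through which many short-lived transcripts are turned over, was found 4 times in the 3′ UTR of RGS16, 2 times in that of RGS4 and once each in those of RGS3, RGS5, RGS19 and RGS20. It was in none of the 3′ UTRs of RGS1, RGS2, RGS10 and RGS12. Among the same tested protein-coding genes, log2 fold changes were also lower with TATTTAT (median -0.044 in 4780 genes) than without it (0.001 in 8198). Genes holding both ACAGCTT and TATTTAT were not separated and UTR length was not matched, so the medians cannot tell these sequences apart. Of all 15200 UTRs searched, 35.6% hold TATTTAT, and of UTRs as long as that of RGS16, 32.8%. The last 2 copies in RGS16 overlap within the stretch shown here (chr1:182598722-182598751, minus strand), in which the capitals mark the first of them.
RGS16: cactgtttaaaTATTTATttattgtgacaa

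RGS1 and RGS2 lie near each other on chromosome 1, 229 kb apart and on the same strand, with RGS13 between them. Since their transcript levels followed each other across the libraries, the 250 bases before the start of each are shown (RefSeq, GRCh38.p14, plus strand), at chr1:192575523-192575772 for RGS1 and chr1:192808789-192809038 for RGS2. The capitals mark matches to TATAAA, the TATA box, and to TGACG on the opposite strand, which reads CGTCA here and is one side of the palindromic cAMP response element TGACGTCA.
RGS1: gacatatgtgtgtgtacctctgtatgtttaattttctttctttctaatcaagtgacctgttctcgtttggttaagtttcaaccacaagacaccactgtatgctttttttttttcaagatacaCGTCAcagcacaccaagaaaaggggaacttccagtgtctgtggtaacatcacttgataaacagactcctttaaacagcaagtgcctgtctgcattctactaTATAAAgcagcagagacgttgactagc
RGS2: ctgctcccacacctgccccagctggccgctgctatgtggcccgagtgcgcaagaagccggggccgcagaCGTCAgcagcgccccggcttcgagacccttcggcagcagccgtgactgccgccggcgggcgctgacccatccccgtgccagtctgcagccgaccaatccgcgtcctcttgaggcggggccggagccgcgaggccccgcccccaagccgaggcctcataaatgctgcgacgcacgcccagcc

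The promoters of these genes are unlike in composition, with 41.7% G and C in RGS1 and 69.7% in RGS2 over the window from 250 bases before to 50 after the start. RGS1 has TATAAA 27 bases before its start, which RGS2 lacks in this window. TGACG was found on the opposite strand in both, at -128 in RGS1 and at -181 in RGS2. The motif was not particular to these genes: RGS3, RGS4 and RGS12 also hold it in an annotated promoter. The promoters of RGS20 were not among those examined for the members. One promoter of RGS4, a gene with about the same level in both groups, has TATAAA at -30 and TGACG on the opposite strand at -139. Over 35116 human promoters of the same length, searched on both strands, 11.5% hold TATAAA, 24.6% hold TGACG and 1.8% hold the full TGACGTCA, each of which also counts as a match to TGACG. The full TGACGTCA was in neither promoter. The AP-1 motif TGANTCA, the E-box motif CACGTG and the ETS motif CCGGAAG, present in 7.7%, 7.3% and 10.3% of promoters, were also found in neither.

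RGS2 (ENSG00000116741.8, chr1:192809039-192812275) acts mainly on the alpha subunits of the Gq class and is known for its part in the control of blood pressure. Its transcript was at 59.9, 81.3 and 61.7 CPM in neg.si replicates 1, 2 and 3 and at 107, 156 and 113 CPM in RIPK4.si replicates 1, 2 and 3. All 3 RIPK4.si libraries lay above all 3 neg.si libraries. The means were 67.7 ± 11.9 CPM (SD, n = 3) and 126 ± 26.9 CPM (SD, n = 3), a ratio of 1.85. The log2 fold change was 0.89 (standard error 0.197, 95% interval 0.45 to 1.34), with an adjusted p of 0.0900 by edgeR, which misses the threshold of 0.05, and of 0.00482 by DESeq2, which passes it. RGS2 had the smallest p of the 10 genes by either tool.

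RGS1 (ENSG00000090104.12, chr1:192575763-192580024) acts on Gi and Gq alpha subunits and is best known from lymphocytes, where it dampens chemokine receptors. It was measured at 20.5, 22.7 and 18.1 CPM in the neg.si libraries and at 29.0, 40.0 and 31.1 CPM in the RIPK4.si libraries. The groups did not overlap here either, and RIPK4.si replicate 2 was the highest library for RGS1 as for RGS2. The mean went from 20.5 ± 2.29 CPM (SD, n = 3) to 33.4 ± 5.86 CPM (SD, n = 3), which is 0.71 on the log2 scale (standard error 0.181, 95% interval 0.30 to 1.11). Its adjusted p was 0.137 by edgeR and 0.0325 by DESeq2.

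RGS5 (ENSG00000143248.13, chr1:163111121-163321791) is the R4 member known as a marker of pericytes, the cells that wrap small blood vessels. It was at 47.8, 50.2 and 61.6 CPM in neg.si and at 35.5, 38.6 and 34.7 CPM in RIPK4.si, so the direction was opposite to that of RGS1 and RGS2 and the groups again did not overlap. The means were 53.2 ± 7.36 CPM (SD, n = 3) and 36.3 ± 2.08 CPM (SD, n = 3). The log2 fold change of -0.55 (standard error 0.157, 95% interval -0.91 to -0.20) did not pass the threshold with edgeR (adjusted p = 0.184), with DESeq2 (0.0968) or with edgeR after the GC trend of each library was removed (0.0505). The mural-cell markers ABCC9 and MYH11 were at 0.415 to 1.89 CPM, with no separation between the groups. RGS5 shares 534 exon bases with a long non-coding RNA gene on the same strand (AL592435.1), whose level was 1.97 ± 0.746 CPM in neg.si and 2.25 ± 0.315 CPM in RIPK4.si. How read pairs in the shared bases were divided is not given in the sources used here.

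RGS16 (ENSG00000143333.7, chr1:182598623-182604389), an R4 gene induced by mitogens and cytokines in many cells, was close to the limit of detection. Its counts were 7, 5 and 12 in the neg.si libraries and 18, 23 and 23 in the RIPK4.si libraries. The corresponding levels were 0.257 ± 0.109 CPM (SD, n = 3) and 0.716 ± 0.0935 CPM (SD, n = 3), with no overlap. The log2 fold change was 1.46 (standard error 0.423, 95% interval 0.51 to 2.41, edgeR adjusted p = 0.193). DESeq2 gave an unadjusted p of 0.0134 and no adjusted value. RGS16 passed the filter on low counts only through the RIPK4.si libraries, in which it was high, so its place among the tested genes is not independent of its direction.

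RGS4 (ENSG00000117152.13, chr1:163068775-163076802), known mostly from the brain, lies 34.3 kb from RGS5 and had about the same level in both groups. It was at 79.5, 111 and 107 CPM in neg.si and at 79.4, 112 and 97.5 CPM in RIPK4.si, with means of 99.0 ± 16.9 and 96.3 ± 16.3 CPM (SD, n = 3 each). The log2 fold change was -0.04 with a 95% interval of -0.46 to 0.38, so that changes as large as those measured for RGS2 (0.89) and RGS5 (-0.55) lie outside it. RGS3 (ENSG00000138835.22, chr9:113444731-113597743), a gene with many isoforms, some of them far longer than other R4 proteins, was at 34.2, 21.2 and 15.6 CPM in neg.si and at 33.2, 34.2 and 27.6 CPM in RIPK4.si. The groups overlapped because of neg.si replicate 1, and the log2 fold change was 0.42 (95% interval -0.18 to 1.02, edgeR adjusted p = 0.679).

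None of the R12 and RZ genes reached an unadjusted p under 0.05. RGS12 (ENSG00000159788.19, chr4:3293028-3439913), a scaffold that also binds RAS and receptor tyrosine kinases, was at 70.3, 56.7 and 44.9 CPM in neg.si and at 66.5, 63.3 and 62.6 CPM in RIPK4.si. RGS10 (ENSG00000148908.15, chr10:119499817-119542719), known from microglia and platelets, was at 25.1, 23.7 and 21.0 CPM against 20.5, 27.3 and 20.2 CPM. In both genes the groups overlapped, and the log2 fold changes were 0.16 (95% interval -0.24 to 0.57) and -0.04 (95% interval -0.44 to 0.36).

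RGS19 (ENSG00000171700.14, chr20:64073181-64079988), first found as a partner of Gi alpha subunits and known as GAIP, was at 19.9, 11.5 and 8.53 CPM in neg.si and at 11.6, 14.1 and 11.6 CPM in RIPK4.si. RGS20 (ENSG00000147509.14, chr8:53851795-53959303), which prefers the alpha subunit Gz, was at 6.04, 7.03 and 8.78 CPM against 6.68, 9.14 and 8.71 CPM. The groups overlapped in both, with log2 fold changes of -0.10 (95% interval -0.75 to 0.55) for RGS19 and 0.17 (95% interval -0.31 to 0.65) for RGS20. The 4 adjusted p-values of these subfamilies lay between 0.868 and 0.979 by edgeR. No member shares exon bases with an annotated gene on the opposite strand, so counting without strand mixed no antisense exons into these values.

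**Figure D1:**
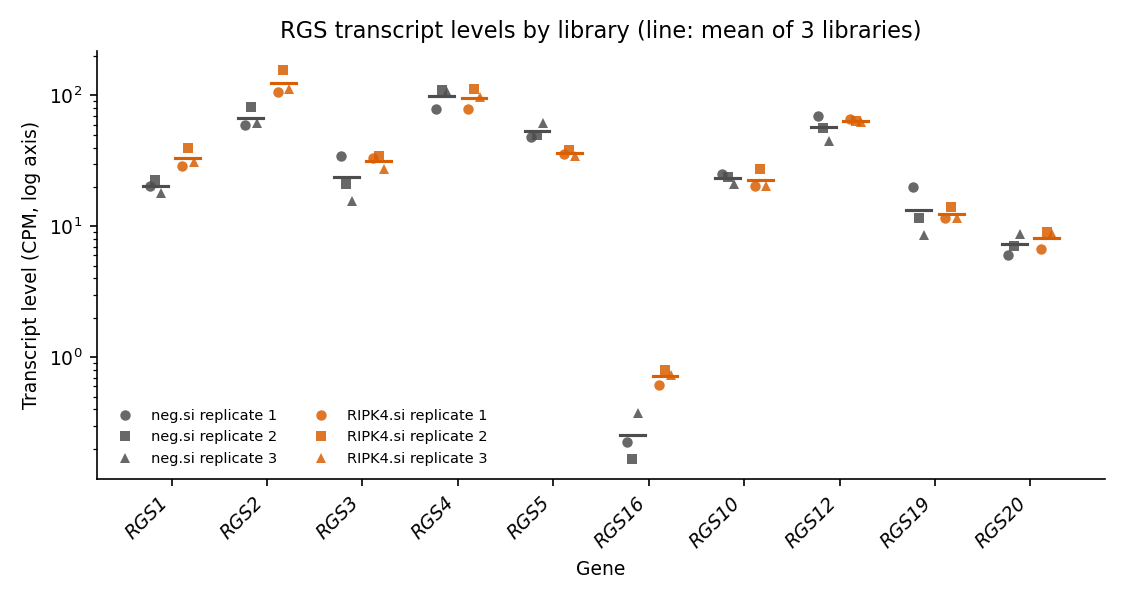
Transcript level of each of the 10 RGS genes in the 6 libraries, in CPM on a log axis, with neg.si in grey, RIPK4.si in orange, the symbol marking the replicate and a line at the mean of 3 libraries. The groups are apart for RGS1, RGS2 and RGS16, which were higher in RIPK4.si, and for RGS5, which was lower, and they overlap in the other 6 genes.

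Of the 10 members, all of which entered the test, edgeR called 0 at an adjusted p under 0.05, beside 0.767% of all genes tested. An unadjusted p under 0.05 was reached by 4 members (RGS1, RGS2 and RGS16 higher, RGS5 lower), against 10.8% of all genes, and in the same 4 the groups did not overlap, as in 17.6% of all genes. RGS16 entered the test only through the group in which it was high. When each library had to hold 10 or more counts of a gene, 3 members (RGS1, RGS2 and RGS5) reached an unadjusted p under 0.05. At that setting 1640 genes in all did so. DESeq2 called 2 members, both higher in RIPK4.si, where it called 2.91% of the 15015 genes with an adjusted value. After removal of the GC trend, edgeR called 0 members and 3.27% of all genes, with RGS2 at an adjusted p of 0.0534 and RGS1 at 0.141. The median log2 fold change was 0.16 over the members and -0.02 over all genes.

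The plot of log2 fold changes orders the members by size. The R4 genes, 6 of the 10, are spread over the whole order: RGS2 and RGS1 lie near the top, RGS3 (0.42) and RGS4 (-0.04) in the middle and RGS5 at the bottom. RGS16 has the highest value, from few counts and after passing the filter only through the group in which it is high.

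**Figure D2:**
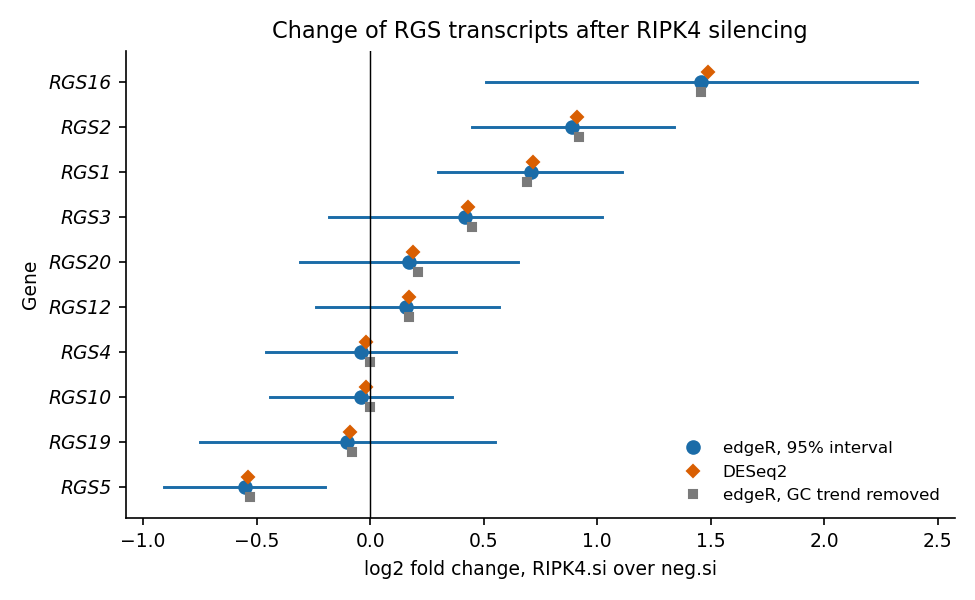
Log2 fold change of each RGS gene, RIPK4.si over neg.si, by edgeR with its 95% interval (circle and bar), by DESeq2 (diamond) and by edgeR with the GC trend removed (square). The edgeR interval lies above 0 for RGS16, RGS2 and RGS1, below 0 for RGS5 (-0.91 to -0.20) and spans 0 for the other members, and the 3 fits give nearly the same fold changes.

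Comparing one gene with another requires a level per length, here CPM per kilobase of the longest protein-coding transcript. On this scale RGS2 was the most abundant in neg.si, at 50.2 ± 8.81, above RGS4 at 29.9 ± 5.12 and RGS10 at 25.2 ± 2.27 (SD, n = 3 each), and the last 2 overlapped. RGS1 followed at 15.1 ± 1.69. RGS12, RGS5 and RGS19 overlapped one another at 10.4 ± 2.30, 9.15 ± 1.27 and 8.22 ± 3.64, followed by RGS3 at 5.15 ± 2.08 and RGS20 at 3.44 ± 0.657, which also overlapped. RGS16 stood far below, at 0.107 ± 0.0452. In RIPK4.si the level per kilobase of RGS2 was 93.1 ± 20, that of RGS1 was 24.7 ± 4.34, beside 24.6 ± 4.33 for RGS10, and that of RGS5 was 6.24 ± 0.357, below RGS19 at 7.66 ± 0.882. If all annotated exons of a gene were counted in its length instead, RGS2, RGS4 and RGS10 were again the first 3 in neg.si (32.4, 20.9 and 18.3) and RGS16 the last (0.107), but RGS1 came after RGS5 and RGS19 (5.02 against 8.03 and 6.56). The order in the middle therefore depends on the length used.

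Summed over the 10 members, the levels were 363, 385 and 347 CPM in neg.si and 390, 496 and 408 CPM in RIPK4.si. The groups did not overlap, with means of 365 ± 18.9 and 431 ± 56.6 CPM (SD, n = 3 each). Without RGS2 the sums were 298 ± 10.4 and 306 ± 29.8 CPM, and they overlapped. Of the difference in the total of 65.9 CPM, RGS2 gave 57.8 and RGS1 12.9, while RGS5 took off 16.9 (mean difference -16.9). The size rests in part on RIPK4.si replicate 2, which had the largest mitochondrial share of counts (13.4%) and the smallest normalization factor (0.94). The part of these in the sum was not tested. Without that library, a choice made after the values were seen, the difference in the total was 33.6 CPM and that of RGS2 42.4 CPM. Without any one of the other libraries the difference in the total was 56.9 to 86.6 CPM. The sum was given no test.

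Each library can also serve as its own reference. RGS2 made up 16.5%, 21.1% and 17.8% of the member counts in neg.si and 27.4%, 31.5% and 27.8% in RIPK4.si. The share of RGS4 was 21.9%, 28.7% and 30.8% in neg.si and 20.4%, 22.6% and 23.9% in RIPK4.si, with overlap. The share of RGS5 was 13.1%, 13% and 17.7% in neg.si and 9.11%, 7.79% and 8.50% in RIPK4.si. Ratios of counts within a library were chosen after the values were seen. There were 0.754, 0.736 and 0.578 counts of RGS2 per count of RGS4 in neg.si and 1.35, 1.4 and 1.16 in RIPK4.si. RGS2 per RGS5 was 1.29 ± 0.312 in neg.si and 3.44 ± 0.541 in RIPK4.si, and RGS1 per RGS5 was 0.392 ± 0.0856 and 0.917 ± 0.114 (SD, n = 3 each). RGS4 per RGS5 was 1.87 ± 0.291 and 2.65 ± 0.358. RGS1 per RGS2 was 0.343, 0.279 and 0.294 in neg.si and 0.271, 0.256 and 0.274 in RIPK4.si, with the groups just apart. All 5 ratios computed were without overlap between the groups. Each of them holds RGS1, RGS2 or RGS5, whose groups were already seen to be apart. The two-sided exact permutation test gave p = 0.1 for each and after adjustment over the 5. That is the smallest p that 3 against 3 allows, so the test adds no support.

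Across the 6 libraries the pattern of RGS1 was near that of RGS2. The likeness was measured as the root mean square difference of log2 CPM after each gene was centred on its mean over the 6 libraries. A change between the groups like that of RGS2 is therefore part of the likeness. The root mean square difference was 0.133 for RGS1, the 7th closest of all tested genes, and from 0.432 for RGS20 to 0.752 for RGS5 in the other members. The 3 genes most like RGS2 were ACKR4, a decoy receptor for chemokines (0.107), CAV1, the coat protein of caveolae (0.107), and BPNT1, a phosphatase of nucleotide and inositol metabolism (0.108). These genes were thus picked in part for being higher in RIPK4.si, so their rise and p-values are no separate support. BPNT1 rose from 66.5 ± 4.2 to 128 ± 20.2 CPM (SD, n = 3 each, edgeR adjusted p = 0.0397). CAV1 was at 351 ± 22.2 and 640 ± 100 CPM (edgeR adjusted p = 0.0540, DESeq2 0.000528), and ACKR4 at 2.76 ± 0.338 and 4.69 ± 0.822 CPM (adjusted p = 0.198).

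The genes around the members were looked at after their values had been seen. Between RGS1 and RGS2 lies RGS13, which was too low to be tested, at 0.287 ± 0.277 CPM in neg.si and 0.293 ± 0.164 CPM in RIPK4.si. Within 500 kb, UCHL5, RO60, GLRX2 and CDC73 had log2 fold changes between -0.06 and 0.16. B3GALT2, a galactosyltransferase gene of the same neighbourhood, rose from 2.42 ± 0.411 to 5.54 ± 0.285 CPM (SD, n = 3 each), a log2 fold change of 1.19 (edgeR adjusted p = 0.0451, DESeq2 0.000511). The higher levels on this stretch of chromosome 1 were therefore measured for RGS1, RGS2 and B3GALT2, with UCHL5, RO60 and GLRX2 between RGS2 and B3GALT2 near 0. CDC73, on the plus strand, spans B3GALT2, which is on the minus strand. Whether their exons overlap, which counting without strand could mix, was not examined. Near RGS4 and RGS5, the log2 fold changes of UAP1, DDR2, HSD17B7 and NUF2 ran from -0.49 to 0.28, and near RGS16 those of GLUL, NPL, DHX9 and LAMC1 ran from -0.35 to 0.03. None of these 8 genes was called by edgeR or DESeq2.

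The members' ratios between neg.si replicates 1 and 3, the libraries with opposite GC trends, were set beside their GC content. RGS19, RGS3 and RGS12, with 62.4%, 58.9% and 57.7% G and C in their longest transcripts, were 2.33, 2.20 and 1.56 times as high in neg.si replicate 1 as in neg.si replicate 3. The AT-rich RGS5 and RGS4, with 36.5% and 39.7%, were at 0.776 and 0.744 times, and RGS2, with 41.5%, at 0.971 times. The other members did not keep to this order. RGS1, with the lowest GC content (35.8%), was at 1.13 times, RGS10 and RGS20, both at 47.6%, were at 1.2 and 0.687 times, and RGS16, at 53.2%, was at 0.598 times, a ratio of 7 counts to 12. As a description over the 10 genes, which share their libraries, Pearson's r between GC content and the log2 ratio was 0.637 and Spearman's rho 0.511.

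**Figure D3:**
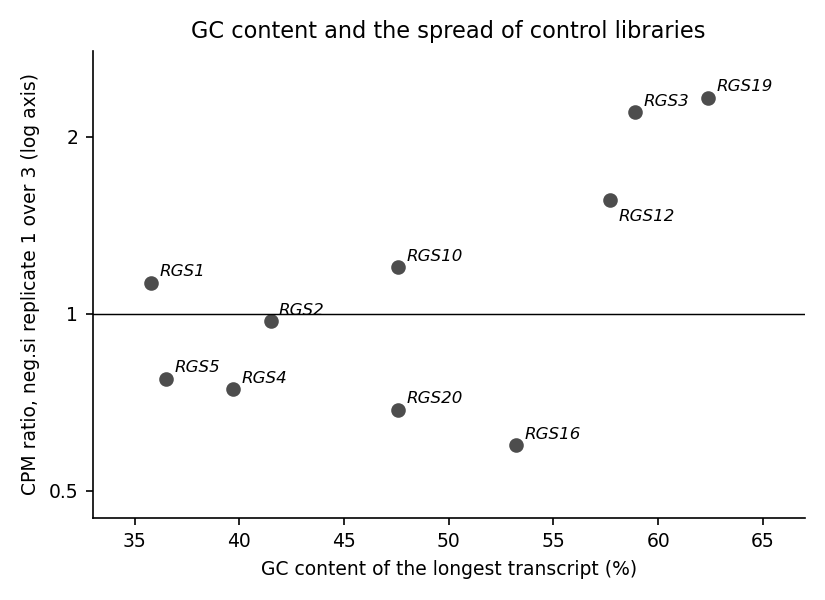
Ratio of CPM in neg.si replicate 1 to neg.si replicate 3 (log axis) against the GC content of the longest transcript in percent, 1 point for each RGS gene. The GC-rich RGS19, RGS3 and RGS12 lie at 1.56 to 2.33, and the other 7 genes, from 0.598 to 1.2, show no clear order.

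Among the 3 neg.si libraries the coefficient of variation was 44.3% for RGS19, 42.4% for RGS16 with its few counts, 40.4% for RGS3 and 22.2% for RGS12, while over all members in RIPK4.si it ran from 3.19% for RGS12 to 21.3% for RGS2. Leaving out neg.si replicate 1 moved the log2 fold changes of RGS3, RGS19 and RGS12 to 0.80, 0.33 and 0.35, and leaving out neg.si replicate 3 moved them to 0.20, -0.34 and 0.02, none of them called. The values of RGS2 without these libraries were 0.83 and 0.84, and those of RGS5 were -0.61 and -0.43. The part of the GC trend in the differences of the members was not tested beyond the fit in which it was removed.

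The partners of RGS proteins were taken from 7 lists with 102 genes, of which 91 were in the table and 77 could be tested. With edgeR 1 of the 77 rose and 0 fell, and over all genes 0.767% were called, 61 upwards and 64 downwards. An unadjusted p under 0.05 was found for 4 higher and 11 lower partners, where 10.8% of all genes had one, 790 higher and 978 lower. DESeq2 called 1 partner higher and 6 lower, and 2.91% of all genes, 221 higher and 216 lower. After removal of the GC trend edgeR called 2 partners higher and 4 lower, and 3.27% of all genes. Their median log2 fold change was -0.07, against -0.02 over all genes. The other RGS family members gave little: of 11, 4 could be tested (RGS9, RGS11, RGS14 and RGS17), with log2 fold changes from -0.47 to 0.31 and 0 called by either tool. RGS6, RGS7, RGS8, RGS18 and RGS21 were not analysed here. RGS14, a member of the R12 subfamily and the one with the smallest p of the 4, was at 5.41 ± 1.39 CPM in neg.si and 3.91 ± 0.218 CPM in RIPK4.si (edgeR adjusted p = 0.534). Of 14 other genes whose proteins carry an RGS domain, such as the receptor kinases and AXIN1, 0 were called by either tool and 0 had an unadjusted p under 0.05, and the smallest p was that of GRK6, a kinase of activated receptors (log2 fold change -0.33, adjusted p = 0.754).

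The alpha subunits, on which RGS proteins act, gave 0 calls by either tool among 12 tested genes, and 1 higher and 1 lower at an unadjusted p under 0.05. GNAQ, the Gq subunit that RGS2 acts on, had the smallest p, with 105 ± 28.3 CPM in neg.si and 67 ± 10.2 CPM in RIPK4.si (log2 fold change -0.65, 95% interval -1.13 to -0.17, edgeR adjusted p = 0.267). GNAS, which encodes the stimulatory subunit, was at 1540 ± 121 and 1500 ± 49.9 CPM. Of the 11 tested beta and gamma subunits edgeR called 0, 3 were lower at an unadjusted p under 0.05, and DESeq2 called 2, the gamma subunits GNG4 and GNG2. GNG4 was at 30.3 ± 1.67 CPM in neg.si and 18.3 ± 1.24 CPM in RIPK4.si (log2 fold change -0.73, edgeR adjusted p = 0.0726, DESeq2 0.00707, edgeR with the GC trend removed 0.0244), and GNG2 at 196 ± 11 and 135 ± 3.99 CPM (log2 fold change -0.54, edgeR 0.131, DESeq2 0.0362, with the GC trend removed 0.0617). The groups were apart in both.

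Among 10 tested adenylyl cyclases and phospholipases C-beta, the enzymes that alpha subunits switch, 0 were called by either tool and 0 had an unadjusted p under 0.05. PLCB4, a target of Gq, came first with a log2 fold change of -0.61 (95% interval -1.24 to 0.02, edgeR adjusted p = 0.486). Of 9 other regulators and arrestins edgeR called 0, 1 was higher and 4 lower at an unadjusted p under 0.05, and DESeq2 called 2 lower. These were ARRB1, the arrestin that uncouples active receptors, with 61.2 ± 8.37 and 36.9 ± 5.80 CPM (edgeR adjusted p = 0.121, DESeq2 0.0305, edgeR with the GC trend removed 0.0237), and GPSM2, which binds inactive Gi subunits and helps to orient the mitotic spindle, with 39.0 ± 7.63 and 22.8 ± 3.02 CPM (edgeR 0.126, DESeq2 0.0159, with the GC trend removed 0.0153). With the GC trend removed, GPSM1, a relative of GPSM2, was also called, as higher (adjusted p = 0.0497).

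The receptors gave the single edgeR call of the 7 lists. PTGER4, a receptor for prostaglandin E that raises cAMP through Gs, was at 1.13, 1.2 and 0.724 CPM in neg.si and at 3.17, 3.50 and 3.18 CPM in RIPK4.si. From this low level it rose by 1.69 on the log2 scale (standard error 0.267, edgeR adjusted p = 0.0329). With single libraries left out its log2 fold change lay between 1.5 and 1.84, but the call was lost without neg.si replicate 1 or 2 (adjusted p = 0.0506 and 0.191) and without RIPK4.si replicate 1, 2 or 3 (0.147, 0.126 and 0.214). EDNRB, the endothelin receptor of melanocytes, was at 465 ± 53.0 CPM in neg.si and 288 ± 36.8 CPM in RIPK4.si (edgeR adjusted p = 0.115, DESeq2 0.0183, edgeR with the GC trend removed 0.0505), and GPR161, an orphan receptor of the primary cilium, at 25.8 ± 0.893 and 17.3 ± 0.679 CPM (edgeR 0.132, DESeq2 0.0446, with the GC trend removed 0.0365). Both were lower, and neither group overlapped the other. The 7 melanocytic markers, summed, were at 3020 to 3150 CPM in the neg.si libraries and at 2170 to 2190 CPM in RIPK4.si. Of them edgeR called 1, PMEL, which fell by 1.30 on the log2 scale (adjusted p = 0.0111), and DESeq2 called PMEL, TYR and DCT lower. The log2 fold changes by edgeR were -0.57 for TYR, -0.73 for DCT, -0.15 for SOX10, 0.04 for MITF, 0.06 for MLANA and 0.36 for TYRP1. The part of these markers in the receptor values was not tested.

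**Figure D4:**
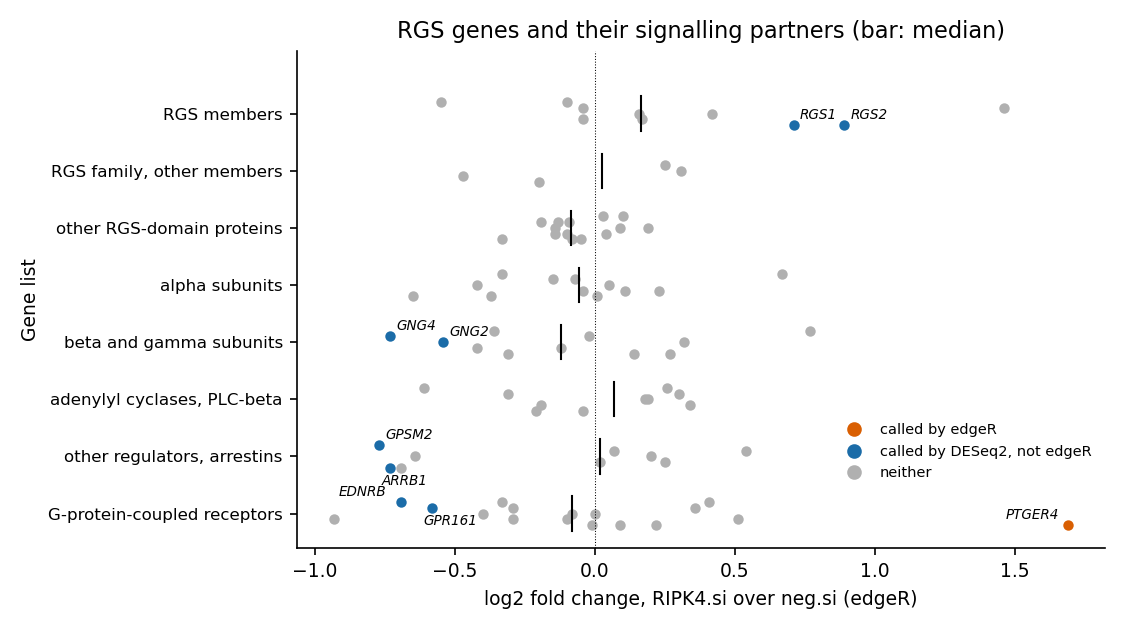
Log2 fold change, RIPK4.si over neg.si by edgeR, of the tested genes in the RGS members and the 7 partner lists, 1 point a gene, with a bar at the median of each list. Called means an adjusted p under 0.05, with edgeR run on counts without removal of the GC trend: PTGER4 (1.69) is called by it and 8 genes by DESeq2 and not by it, of which RGS1 and RGS2 lie above 0 and 6 partners below it.

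The sequence ACAGCTT, shown above for RGS1 and RGS2, was in the longest 3′ UTR of 20 of the 77 partner genes (26%), against 18.4% of the tested protein-coding genes. The partners with it had a median log2 fold change of -0.22 and those without it -0.04. Below 0 were 13 of the 20 with it and 31 of the 57 without it. Among the tested protein-coding genes, 36% of those with the sequence and 50% of those without it were above 0, so the partners' counts with it are near the share among those genes. Those with it include GNAQ, PLCB4, ARRB1, GPSM2 and GPR161, lower in mean level in RIPK4.si, and also GNG5, GNAO1 and S1PR2, higher with log2 fold changes of 0.77, 0.67 and 0.51. Among these 8 genes, ARRB1, GPSM2 and GPR161 were the ones called by DESeq2 and by edgeR with the GC trend removed, and edgeR without that step called 0. The genes EDNRB, GNG2 and GNG4 were lower without holding it.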

How the data were processed

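RNA-seq of 6 WM266.4 libraries, 3 neg.si and 3 RIPK4.si, was analysed from 1 deposited table. The authors used Cutadapt for trimming, TopHat for alignment (GRCh38.p13) and HTSeq, set to ignore strand, for counting pairs per gene. The deposited count values are whole and not normalized, and no gene has a total under 6. A deposited signal value is the count after division by a DESeq2 size factor. The authors' own fold ratio, log2 fold change with its error, and p-value columns hold their comparison and were not used.

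Counts were tested with edgeR 4.0.16 in R 4.3.3 (TMM, filterByExpr with a minimum count of 10, quasi-likelihood test, Benjamini-Hochberg over 16297 genes), with DESeq2 1.42.0 and other normalizations, filters and left-out libraries as alternatives. The test was tried on simulated data. GC content, UTRs and overlaps came from GENCODE 44, which held 24416 of the gene identifiers, and promoters from RefSeq. The GC trend was a lowess of span 0.3. Likeness used log2 CPM with a prior count of 2. With 28464057 to 31688095 counts per library, depth limits only genes such as RGS16.

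Named genes were the members, RIPK4, in each list the called genes or, with none, the one of smallest p, and the 3 most like the member of smallest p. Genes called by DESeq2 alone, GNAS, GNG5, GNAO1, GPSM1, S1PR2 and neighbouring genes, 1 of which is not reported here, were named after their values were seen. Members, lists and 3′ UTR sequences were chosen with earlier results of these data known.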

Additional observations from a re-analysis of the deposited data

How the results depend on the processing

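The directions of RGS1, RGS2, RGS5 and RGS16 held under all alternatives run, with log2 fold changes of 0.56 to 0.81, 0.71 to 1.06, -0.61 to -0.43 and 1.25 to 1.85. Their adjusted p-values ranged from 0.0325 to 0.482, 0.00482 to 0.337, 0.0505 to 0.736 and 0.0878 to 0.642 (11 alternatives for RGS16, 13 for the others). RGS4, RGS10 and RGS19 crossed 0 without a call, RGS19 from -0.34 to 0.33. The cause of these changes was not tested.

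DESeq2 called 437 genes, 2 members and 7 partner genes, and removal of the GC trend gave 533 genes and 6 partner genes, against 125, 0 and 1 with edgeR. Without single libraries edgeR called 0 to 295 genes, 0 members and 0 to 3 partner genes. Of the single libraries, neg.si replicate 2, RIPK4.si replicate 1 and RIPK4.si replicate 3 each gave 0 genes when left out. In these fits 1153, 1426 and 1086 genes had an unadjusted p under 0.05. RGS1, RGS2, RGS5 and RGS16 were among them each time, but the fits share most of their libraries and do not replicate one another. RGS16 entered the test only through the group in which it was high. RIPK4 stayed between -2.06 and -1.74, but with adjusted p-values of 0.106 without neg.si replicate 2 and 0.094, 0.0622 and 0.0725 without RIPK4.si replicate 1, 2 or 3. A fit with fewer libraries has fewer residual degrees of freedom.

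The replicate numbers are shared between groups. Deviations of same-numbered libraries correlated at -0.242, 0.251 and 0.346 for numbers 1, 2 and 3. Those of differently numbered libraries correlated at -0.498 to 0.413, so these values cannot decide whether a number marks a shared experiment. The labels do not say so either, and the main test did not take the numbers as pairs. With a replicate block edgeR called 131 genes, 1 member (RGS2, log2 fold change 0.88, adjusted p = 0.0381) and 1 partner gene, with RIPK4 at -1.88. Depth limits RGS16, with 5 to 23 counts per library.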
